A study of Mus musculus with 6 samples.

Results

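The genes of cholesterol and fatty acid synthesis, with the genes that control the SREBP transcription factors, were followed in the anterior prostate (AP) of mice. The 34 genes were taken by symbol from the 55076 rows of each table, and 1 row was found for each. They fall into 5 roles, with 5 genes of SREBP control, 7 of the mevalonate pathway, 11 of the sterol branch, 5 that supply acetyl-CoA or build the fatty acid chain, and 6 that desaturate or elongate it. RNA-seq libraries, 3 OEx and 3 Ctrl, were made from the AP of male mice at 20 weeks of age, and each library is called a mouse here. OEx mice were Pbsn-Cre Rosa26 N1ICD/+, in which Cre driven by the probasin promoter switches on the Notch1 intracellular domain (N1ICD) in prostatic epithelium. Ctrl mice carried the same Rosa26 N1ICD/+ allele without Cre, although the labels call their genotype wild type, and no group with Cre alone was sequenced. The RNA came from the bulk tissue, which also holds stroma and other cells outside the reach of this driver.

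Cells make cholesterol from acetyl-CoA through mevalonate, isoprenoid pyrophosphates and squalene, which is closed into the sterol ring and then trimmed, reduced and isomerised. Fatty acid synthesis draws on the same acetyl-CoA, and its saturated product is elongated and desaturated in the endoplasmic reticulum. The SREBP proteins encoded by Srebf1 and Srebf2 sit in that membrane with the escort protein SCAP, and INSIG proteins hold them there when sterols are plentiful. When sterols are short, SREBPs are cleaved and move to the nucleus, where SREBP2 favours the sterol genes and SREBP1 the fatty acid genes. Prostatic epithelium is known for secreting citrate and for making lipid under androgen control.

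The promoters of 4 genes are shown as examples. On the deposited scale Mvk and Insig1 were called lower in OEx mice, the groups of Hmgcs1 overlapped, and Fads2 was called higher. Each window is RefSeq sequence of GRCm38.p6 from 250 bases before to 50 bases after the start, read 5′ to 3′ on the strand of the gene. The windows are chr5:114444019-114444318 on the plus strand for Mvk, chr5:28071162-28071461 on the plus strand for Insig1, chr13:119690101-119690400 on the plus strand for Hmgcs1 and chr19:10101454-10101753 on the minus strand for Fads2. Capitals mark the letters TCACNCCAC (an SREBP type element), CACGTG (an E-box) and CCAAT (the box read by NFY, a partner of SREBP) on either strand, so that ATTGG is CCAAT on the other strand.
Mvk: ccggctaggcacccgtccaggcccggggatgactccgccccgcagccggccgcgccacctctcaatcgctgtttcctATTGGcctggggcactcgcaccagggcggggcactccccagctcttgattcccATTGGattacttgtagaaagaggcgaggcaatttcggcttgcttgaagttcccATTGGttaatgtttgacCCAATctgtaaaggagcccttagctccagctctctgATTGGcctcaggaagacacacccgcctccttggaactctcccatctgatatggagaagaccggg
Insig1: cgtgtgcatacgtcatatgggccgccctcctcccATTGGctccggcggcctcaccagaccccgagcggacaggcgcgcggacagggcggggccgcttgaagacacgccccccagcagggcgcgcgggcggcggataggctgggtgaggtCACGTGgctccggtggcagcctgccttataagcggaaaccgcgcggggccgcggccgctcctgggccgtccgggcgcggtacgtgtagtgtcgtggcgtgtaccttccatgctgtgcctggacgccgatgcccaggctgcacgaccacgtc
Hmgcs1: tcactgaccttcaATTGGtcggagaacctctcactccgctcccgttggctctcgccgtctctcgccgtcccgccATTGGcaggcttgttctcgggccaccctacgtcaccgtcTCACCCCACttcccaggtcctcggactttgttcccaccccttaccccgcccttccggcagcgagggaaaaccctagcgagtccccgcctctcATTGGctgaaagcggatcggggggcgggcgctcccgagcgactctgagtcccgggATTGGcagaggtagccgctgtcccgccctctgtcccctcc
Fads2: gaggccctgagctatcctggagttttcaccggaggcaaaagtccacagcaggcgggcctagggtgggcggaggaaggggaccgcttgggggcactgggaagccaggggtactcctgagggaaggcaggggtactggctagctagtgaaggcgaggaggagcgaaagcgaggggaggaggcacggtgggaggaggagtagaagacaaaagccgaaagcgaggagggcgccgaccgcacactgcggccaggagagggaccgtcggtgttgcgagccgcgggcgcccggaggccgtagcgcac

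The Mvk window held CCAAT 5 times, and the Insig1 window held CACGTG once and CCAAT once. The Hmgcs1 window held TCACNCCAC with its first base 137 bases before the start, beside 4 CCAAT matches. The Fads2 window held no match to any of these motifs. RefSeq windows were matched for 28 of the 34 genes, and Fads1, Fdft1, Fdps, Scd1, Scd2 and Sqle were not matched. Where a gene had several start sites, a match in any of its windows counted. CCAAT was found in 23 of the 28 genes, or 82.1%, against 41.1% of 27025 genes with such windows. CACGTG was found in 6 of 28 genes, or 21.4% against 8.09%, and TCACNCCAC in 1 of 28, or 3.57% against 1.44%. GTGGGAA, the letters read by the Notch partner RBPJ, were found in 3 of 28 genes, or 10.7% against 7.25%. These genes were Hmgcs1, Nsdhl and Sc5d, and the match in the printed Hmgcs1 window is not marked by capitals. The marked motifs do not overlap in the printed windows, and a match of letters is a description of the sequence and not a bound site.

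Notch1 itself was listed at 41.9, 47.6 and 78.9 FPKM in OEx mice and at 5.18, 5.55 and 3.34 FPKM in Ctrl mice. FPKM divides fragments by gene length and by library size. The lengths that fit the deposited values span all annotated exons of a gene and may exceed the transcript expressed. Levels of different genes can therefore be set side by side only roughly. Read counts recovered from the FPKM values ran from 14762182 to 18650962 per mouse, at which 3 reads equal 0.161 to 0.203 CPM. Divided by these reads, the library size implied by the FPKM values came to 1.22 to 1.35 for OEx and 0.726 to 0.815 for Ctrl libraries. The most abundant gene held 14.3% to 22.0% of all reads in Ctrl and 1.04% to 1.12% in OEx libraries. The deposited values are therefore rescaled between groups, and a return to library totals moved the median log2 fold change of all tested genes from -0.078 to 0.558. Replicates 1 and 2 of each group resembled each other more than either resembled replicate 3, with a chi-square per degree of freedom of 4.24 and 3.21 against 63.6 to 110 for the other pairs. They may not be independent mice, and each SE, FDR and n = 3 then measures a spread that is partly technical. Ctrl replicate 3 carried seminal vesicle transcripts at a summed 16128 FPKM, against 2.74 and 4.36 in the other Ctrl mice.

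The question addressed was how the lipid synthesis genes stand in AP with over-activated Notch1. On the deposited scale, Scd1 and Fads2, both fatty acid desaturases, were higher in OEx mice, whereas Mvk and Mvd of the mevalonate pathway, Tm7sf2, Ebp and Dhcr7 of the sterol branch and the SREBP anchor Insig1 were lower. A gene was called with a limma FDR under 0.05 and a fold change over 2 on the log2(FPKM + 1) scale, which understates changes of low genes. Of the 34 genes, 29 had a mean of at least 1 FPKM and were tested, and each of these 29 reached that level in both groups. The calls were 2 higher (6.90%) and 6 lower (20.7%), beside 12.9% higher and 15.7% lower of all 12833 genes tested. Without the fold criterion, 6 were higher, 14 lower and 9 did not pass, beside 30.7% higher and 36.5% lower of all genes. The OEx and Ctrl mice did not overlap for 21 of the 29 genes, or 72.4%, which equals the 72.4% of all genes. The median log2 fold change of the 29 genes was -0.29, beside -0.078 for all genes. This order depended on the filter. With a mean of at least 5 FPKM required, the median was -0.24 over 22 genes, beside -0.345 for all 7165 genes. Of these, 2 of the 22 were called higher and 5 lower, beside 681 and 1564 of the 7165. Over the 30 genes that passed the 1 FPKM filter in each case, the median was -0.17 without Ctrl replicate 1, -0.12 without Ctrl replicate 2 and -0.36 without Ctrl replicate 3. The medians of all genes were then -0.041, -0.045 and -0.068.

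**Figure D1:**
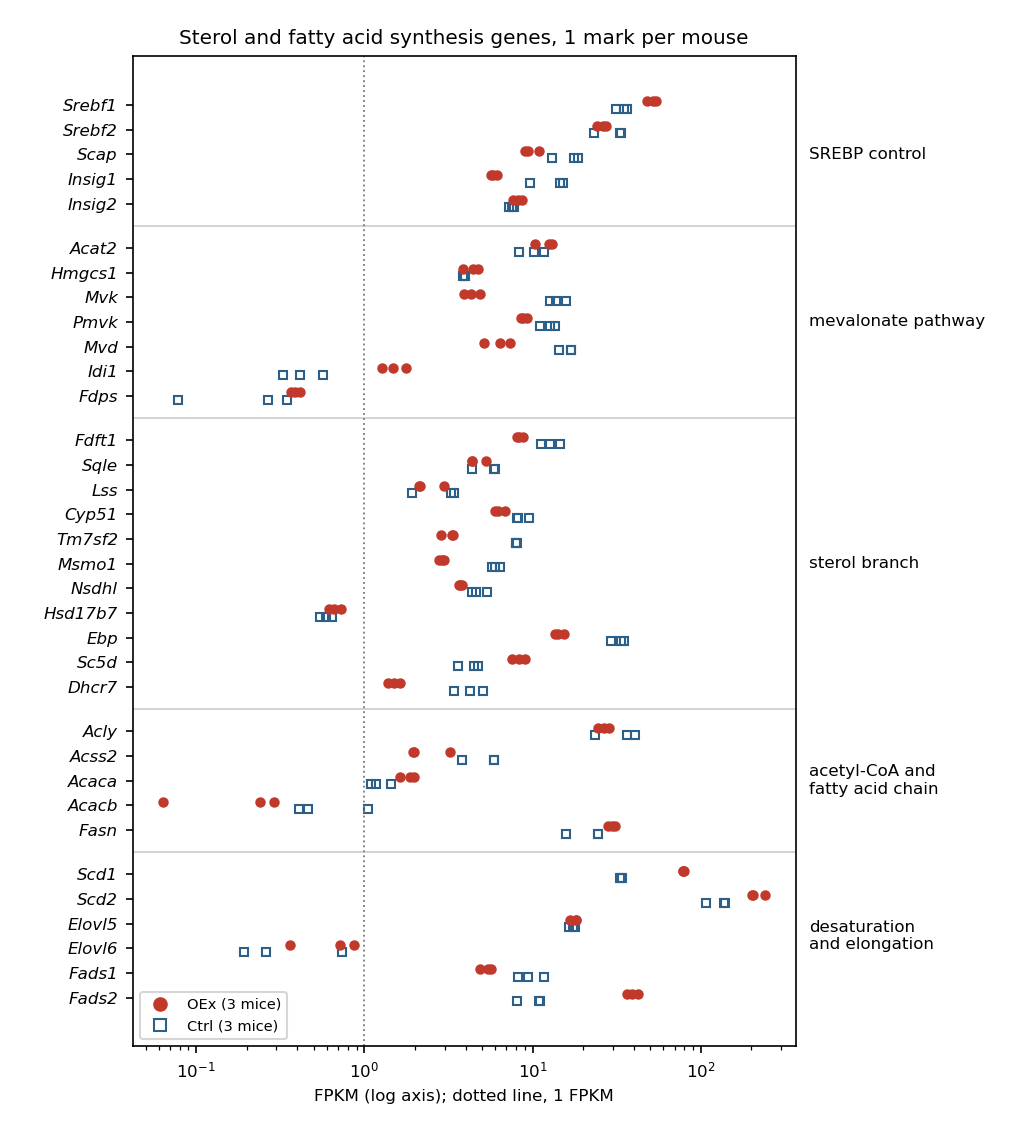
FPKM of the 34 genes in each mouse on a log axis, with filled circles for the 3 OEx mice and open squares for the 3 Ctrl mice, grouped by role. Fads2 and Scd1 show OEx mice to the right of all Ctrl mice, Mvk, Mvd, Ebp, Tm7sf2 and Dhcr7 show them to the left, and Idi1, Fdps, Hsd17b7, Acacb and Elovl6 lie near or under the dotted line at 1 FPKM.

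Among the genes of SREBP control, the Srebf1 and Srebf2 transcripts differed in their position between groups. Srebf1, which encodes the SREBP of fatty acid synthesis, was at 48.0, 52.4 and 54.1 FPKM in OEx mice and at 35.2, 36.6 and 31.6 FPKM in Ctrl mice. All OEx mice were above all Ctrl mice, with a log2 fold change of 0.57 ± 0.092 (SE, n = 3 per group, limma FDR = 0.00171), under the fold needed for a call. Srebf2, which encodes the SREBP of sterol synthesis, was at 24.0, 26.1 and 27.2 FPKM in OEx mice and at 33.2, 33.4 and 23.3 FPKM in Ctrl mice. Its groups overlapped because Ctrl replicate 3 lay below the OEx mice, and the log2 fold change of -0.19 had a 95% interval from -0.56 to 0.17 and turned positive under library totals.

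Scap, the escort of SREBP to the Golgi, was at 9.04, 9.41 and 11 FPKM in OEx mice and at 18.7, 17.6 and 13.0 FPKM in Ctrl mice. The groups did not overlap, and the log2 fold change was -0.68 (limma FDR = 0.00704), but 0.049 under library totals. Part of the Scap exons, 13.2%, lies over a gene on the opposite strand, and the counting is not stated to use strand. Insig1, which anchors the SCAP-SREBP complex and is itself a sterol-responsive gene, was at 5.79, 6.15 and 5.70 FPKM in OEx mice and at 15.2, 14.6 and 9.66 FPKM in Ctrl mice. Insig1 was lower in every OEx mouse, 2.23-fold by the group means, with a log2 fold change of -1.02 ± 0.168 (SE, limma FDR = 0.00182), and its call was lost without OEx replicate 3 (-0.996), Ctrl replicate 1 (-0.91) or Ctrl replicate 2 (-0.93). Its relative Insig2 was at 8.24, 7.61 and 8.68 FPKM in OEx mice and at 7.60, 7.78 and 7.24 FPKM in Ctrl mice. These groups overlapped, with a log2 fold change of 0.10 and a 95% interval from -0.10 to 0.31.

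In the mevalonate pathway, the called genes encode the mevalonate kinase and the decarboxylase that ends the pathway before the isoprenoid pyrophosphates. Mvk, on chromosome 5 at 114444269 to 114460591, was at 4.87, 4.30 and 3.91 FPKM in OEx mice and at 13.8, 15.9 and 12.8 FPKM in Ctrl mice. The highest OEx mouse was well below the lowest Ctrl mouse, and Mvk fell by 1.499 ± 0.115 on the log2 scale (SE, n = 3 per group, limma FDR = 8.24e-05), the largest fall of the 29 genes on the deposited scale. Mvd, on chromosome 8 at 122433601 to 122443422, was at 6.44, 7.34 and 5.16 FPKM in OEx mice and at 16.9, 17.0 and 14.3 FPKM in Ctrl mice. The groups again did not overlap, and Mvd fell by 1.23 ± 0.136 on the log2 scale (SE, limma FDR = 0.000314). Behind these values stood 189 to 551 reads per mouse for Mvk and 173 to 410 for Mvd.

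The enzymes upstream and between did not share this size of change. Acat2, the thiolase that opens the pathway, was at 12.6, 13.0 and 10.4 FPKM in OEx mice and at 11.8, 10.2 and 8.33 FPKM in Ctrl mice. The groups overlapped, with a log2 fold change of 0.23 and a 95% interval from -0.11 to 0.58, and 45.9% of its 50-base windows occur also in Acat3, so that its reads may be shared. Hmgcs1, the HMG-CoA synthase whose promoter is printed above, had means of 4.35 ± 0.456 and 3.93 ± 0.0601 FPKM (SD, n = 3) in OEx and Ctrl mice, with an interval of the log2 fold change from -0.12 to 0.35. Pmvk, the kinase that follows Mvk, was lower without reaching the fold criterion, at -0.45 (limma FDR = 0.00637), and turned positive under library totals at 0.26.

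Idi1, the isomerase of the isoprenoid pyrophosphates, had a mean under 1 FPKM over the 6 mice and was not tested. It was at 1.77, 1.47 and 1.28 FPKM in OEx mice and at 0.570, 0.331 and 0.413 FPKM in Ctrl mice, on 15 to 124 reads. All OEx mice were thus above all Ctrl mice, opposite in position to Mvk and Mvd, and without a filter on low values its log2 fold change was 0.80 (limma FDR = 0.00526). Of its 50-base windows, 21.3% occur also in Gm13502. Fdps, the farnesyl pyrophosphate synthase, was also not tested, on 5 to 37 reads and with 26.7% of its exons shared with Gm43738.

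In the sterol branch, 10 of 11 genes were tested, of which 9 had a negative log2 fold change and 3 were called lower, beside 15.7% of all genes, and under library totals 4 were negative and 0 were called lower, beside 4.59% of all genes. The share of all genes with a negative value was not computed. Ebp, the sterol isomerase and the most abundant gene of the branch, was at 13.6, 14.2 and 15.4 FPKM in OEx mice and at 35.2, 33.4 and 29.3 FPKM in Ctrl mice. It lies on chromosome X at 8185329 to 8193512, and it fell by 1.12 ± 0.099 on the log2 scale (SE, n = 3 per group, limma FDR = 0.000129). Tm7sf2, a sterol ring reductase on chromosome 19 at 6062821 to 6068373, was at 3.35, 2.86 and 3.30 FPKM in OEx mice and at 8.12, 8.01 and 7.95 FPKM in Ctrl mice. The Ctrl mice were nearly level with each other, with an SD of 0.0833 FPKM, and Tm7sf2 fell by 1.12 ± 0.087 on the log2 scale (SE, limma FDR = 8.84e-05). Of the Tm7sf2 exons, 12.1% are shared with Vps51 on the same strand.

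Dhcr7, the reductase of the last step to cholesterol, on chromosome 7 at 143823145 to 143848410, was at 1.49, 1.39 and 1.62 FPKM in OEx mice and at 5.04, 4.28 and 3.42 FPKM in Ctrl mice. Every OEx mouse was below every Ctrl mouse, and Dhcr7 fell by 1.06 ± 0.137 on the log2 scale (SE, limma FDR = 0.000622), a call that was lost without Ctrl replicate 1 at -0.95. Msmo1, the sterol methyl oxidase, missed the fold criterion at -0.86 (limma FDR = 0.000209), with means of 2.89 ± 0.0879 and 6.06 ± 0.347 FPKM (SD, n = 3) in OEx and Ctrl mice. It was called at -1.04 with a pseudocount of 0.1.

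Fdft1 (squalene synthase), Cyp51 (lanosterol demethylase) and Nsdhl (a sterol dehydrogenase) were lower at log2 fold changes of -0.56, -0.39 and -0.29 with a limma FDR of 0.00359, 0.012 and 0.038, and each turned positive under library totals. The squalene epoxidase Sqle and the lanosterol synthase Lss overlapped between groups, each at -0.17 and each positive under library totals. For Fdft1, 18.3% of the exons lie over Ctsb on the opposite strand. Sc5d, the desaturase before Dhcr7, went the other way, with means of 8.28 ± 0.727 and 4.27 ± 0.585 FPKM (SD, n = 3) in OEx and Ctrl mice and a log2 fold change of 0.82 (limma FDR = 0.000959), under the fold criterion. Hsd17b7, the ketoreductase partner of Nsdhl, was not tested, at 0.548 to 0.727 FPKM in all mice.

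**Figure D2:**
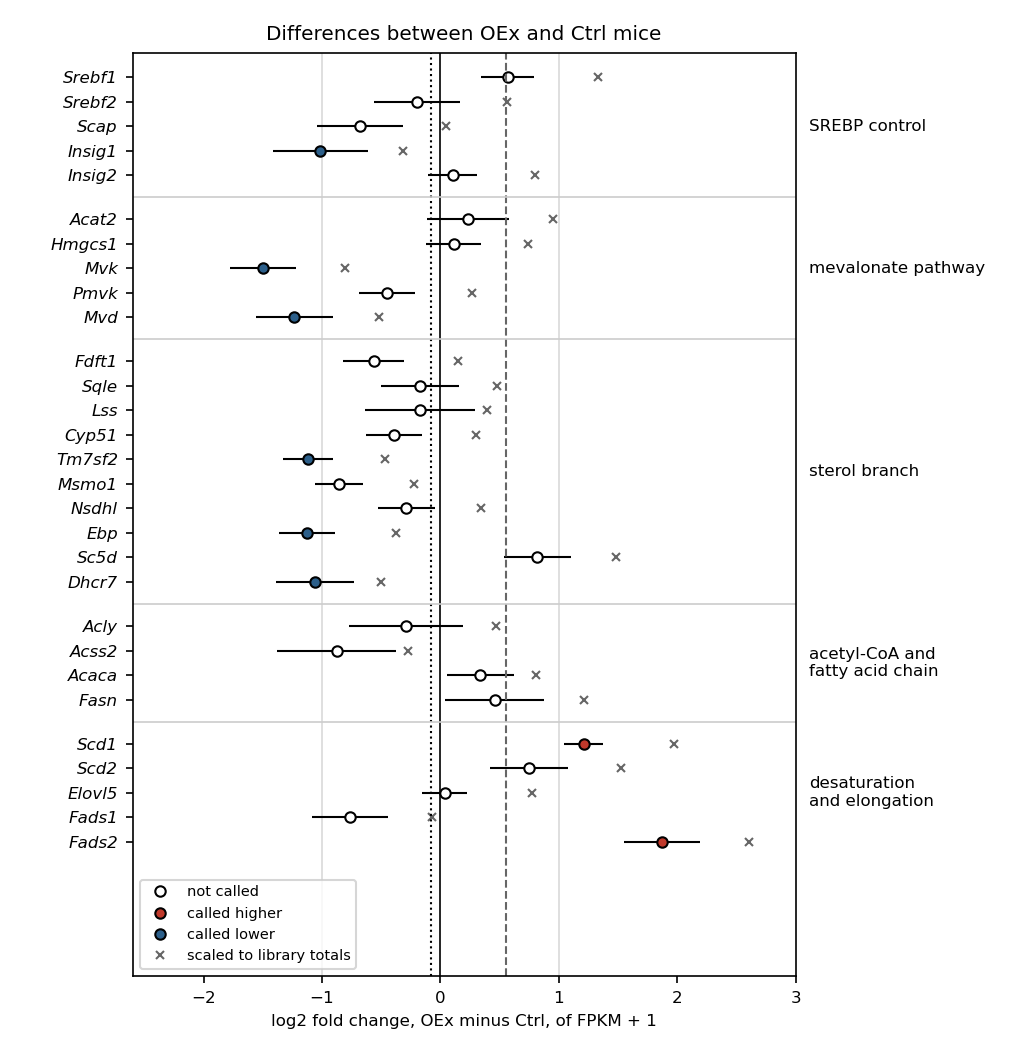
Log2 fold change of FPKM + 1, OEx minus Ctrl, of the 29 tested genes, with circles and 95% intervals from limma on the deposited values and crosses for the same values scaled to library totals. The dotted and dashed lines are the medians of all 12833 genes under these scalings (-0.078 and 0.558), grey lines mark a log2 fold change of -1 and 1, and the filled circles are the 2 genes called higher and the 6 called lower.

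No gene of the acetyl-CoA and fatty acid chain role was called, with 4 of 5 tested and a median log2 fold change of 0.02. Acly, the citrate lyase that supplies acetyl-CoA and the highest member of this role, was at 24.6, 26.5 and 28.4 FPKM in OEx mice and at 36.4, 40.7 and 23.5 FPKM in Ctrl mice. The groups overlapped through Ctrl replicate 3, and the log2 fold change of -0.29 had a 95% interval from -0.77 to 0.19. Fasn, the fatty acid synthase, was at 28.1, 31.0 and 29.8 FPKM in OEx mice and at 24.6, 24.6 and 15.9 FPKM in Ctrl mice. All OEx mice were above all Ctrl mice, but the log2 fold change of 0.46 did not pass (limma FDR = 0.0524).

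Acaca, the carboxylase that commits acetyl-CoA to fatty acids, was at 1.82 ± 0.171 and 1.24 ± 0.173 FPKM (SD, n = 3) in OEx and Ctrl mice, with a log2 fold change of 0.34 (limma FDR = 0.0406). Its level is uncertain, since 52.6% of its 50-base windows occur also in Gm5182. Acss2, the synthetase that makes acetyl-CoA from acetate, was lower at 2.38 ± 0.739 against 5.20 ± 1.21 FPKM, with a log2 fold change of -0.88 (limma FDR = 0.00903). It was called at -1.05 without OEx replicate 3 and at -1.05 without Ctrl replicate 3. Acacb, the carboxylase at the mitochondrial surface, was not tested and lay at 0.0633 to 0.291 FPKM in OEx mice and at 0.409 to 1.05 FPKM in Ctrl mice.

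The desaturases Scd2 and Scd1 had the highest mean FPKM over the 6 mice, and the 2 genes called higher, Fads2 and Scd1, were desaturases. Fads2, which opens the synthesis of polyunsaturated fatty acids, lies on chromosome 19 at 10062765 to 10101746. It was at 36.4, 38.9 and 42.1 FPKM in OEx mice and at 8.11, 10.9 and 11.1 FPKM in Ctrl mice. The lowest OEx mouse was over the highest Ctrl mouse by a wide margin, and Fads2 rose by a log2 fold change of 1.87 ± 0.133 (SE, n = 3 per group, limma FDR = 6.37e-05). Scd1, the stearoyl-CoA desaturase that makes oleate, lies on chromosome 19 at 44394455 to 44407879 and was at 79.8, 78.8 and 78.2 FPKM in OEx mice and at 33.7, 33.9 and 33.2 FPKM in Ctrl mice. The mice of each group lay close together, and Scd1 rose by a log2 fold change of 1.21 ± 0.0687 (SE, limma FDR = 3.58e-05). Both kept their calls in each of the 21 other settings run, at 1.74 to 2.61 for Fads2 and 1.09 to 1.98 for Scd1.

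Scd2, the related desaturase and the most abundant of the 34 transcripts, was at 201.4, 204.0 and 242.7 FPKM in OEx mice and at 140.0, 137.5 and 107.7 FPKM in Ctrl mice. It did not overlap between groups, with a log2 fold change of 0.75 (limma FDR = 0.00284), short of a call on the deposited scale and called at 1.53 under library totals. Of the Scd2 windows, 4.0% occur also in Scd1, and 4.7% of those of Scd1 occur in Scd3. Fads1, which acts after Fads2 in the same route, moved the other way, at 5.64, 5.43 and 4.86 FPKM in OEx mice and 8.21, 9.43 and 11.7 FPKM in Ctrl mice. No OEx mouse reached the lowest Ctrl mouse, and the log2 fold change was -0.76 (limma FDR = 0.00243), under the fold criterion. Elovl5, the elongase between them, was at 17.6 ± 0.849 and 17.2 ± 0.729 FPKM (SD, n = 3) in OEx and Ctrl mice, and its log2 fold change had an interval from -0.16 to 0.23. Elovl6, the elongase of saturated chains, was not tested, with 0.362 to 0.864 FPKM in OEx mice and 0.192 to 0.737 FPKM in Ctrl mice.

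All 8 called genes kept their sign under the 4 scalings run, whereas the sign of 9 other tested genes changed with the scaling: Srebf2, Scap, Pmvk, Fdft1, Sqle, Lss, Cyp51, Nsdhl and Acly. Under library totals no gene was called lower (4.59% of all genes) and 6 were called higher (30.6% of all genes), namely Fads2, Scd1, Scd2, Sc5d, Srebf1 and Fasn. Library totals without the 20 most abundant genes gave 4 higher (19.7% of all genes) and 1 lower (9.38%), and the upper quartile gave 4 higher (18.2%) and 1 lower (10.3%), with Mvk as the lower gene in both. The log2 fold changes under library totals were -0.81 for Mvk, -0.52 for Mvd, -0.50 for Dhcr7, -0.47 for Tm7sf2, -0.38 for Ebp and -0.31 for Insig1, the last with a limma FDR of 0.081. Relative to the median of all genes under library totals, Mvk stood at -1.37, Mvd at -1.08, Dhcr7 at -1.06, Tm7sf2 at -1.02, Ebp at -0.93 and Insig1 at -0.87, and Scd1 and Fads2 stood at 1.42 and 2.05. With trends of GC content and exon length removed, none of the 6 lower genes remained called and Acss2 and Msmo1 were called instead. Of all 12833 genes, 1274 were then called lower, beside 2021 on the deposited scale. Of the 15 tested mevalonate and sterol branch genes, 12 had a negative log2 fold change on the deposited scale and 6 under library totals. Of the 9 tested fatty acid genes, 6 had a positive one on the deposited scale and 7 under library totals. The shares of all genes with each sign were not computed, and the median of all genes was -0.078 and 0.558 on these scales.

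A share within a mouse does not depend on the scaling between mice. The mevalonate and sterol branch genes together made 14.4% to 16.0% of the summed FPKM of the 34 genes in OEx mice and 28.3% to 29.6% in Ctrl mice. Scd1 and Scd2 together made 46.8% to 49.5% in OEx mice and 31.4% to 32.0% in Ctrl mice. The ranges of the groups do not overlap in either case. The first sum itself was 94.2 ± 0.733 FPKM in OEx mice and 147.9 ± 14.2 FPKM in Ctrl mice (SD, n = 3). Scaled to library totals it was 122.7 ± 7.17 and 111.5 ± 3.75, so that the direction of the sum turned, and the sum of all 34 genes on that scale was 797.7 ± 13.5 and 384.9 ± 20.2. The lower share of the mevalonate and sterol branch genes was a share of a larger total in OEx mice.

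**Figure D3:**
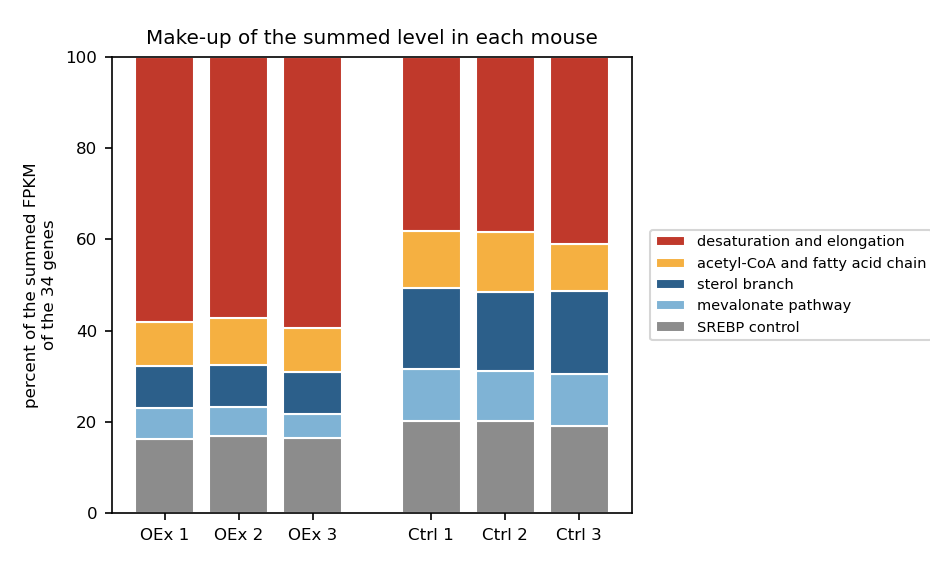
Share of the summed FPKM of the 34 genes held by each role, in percent, with 1 stacked bar for each of the 3 OEx and 3 Ctrl mice. The desaturation and elongation genes hold 57.3% to 59.4% in OEx mice and 38.1% to 41.1% in Ctrl mice, and the sterol branch holds 9.14% to 9.25% and 17.2% to 18.2%.

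Ratios between related genes in the same mouse were compared for 8 pairs, with the exact two-sided permutation test over 20 assignments, which cannot give a p below 0.1. Fads1 over Fads2 was 0.155, 0.139 and 0.115 in OEx mice and 1.01, 0.869 and 1.05 in Ctrl mice. The desaturases were thus near equal in Ctrl mice and far apart in OEx mice, with a difference of the log2 ratio of -2.84 (exact permutation p = 0.1). Srebf1 over Srebf2 was 2.00, 2.01 and 1.99 in OEx mice and 1.06, 1.09 and 1.35 in Ctrl mice. The OEx mice were almost identical in this ratio, and the difference of the log2 ratio was 0.78 (exact permutation p = 0.1). Insig1 over Insig2 was 0.702, 0.809 and 0.656 in OEx mice and 2.00, 1.87 and 1.33 in Ctrl mice, so that the more abundant INSIG transcript was Insig2 in every OEx mouse and Insig1 in every Ctrl mouse.

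The difference of the log2 ratio was -1.25 for Insig1 over Insig2, 0.68 for Fasn over Sqle, 0.48 for Scd1 over Scd2, -0.84 for Acss2 over Acly and -2.39 for Acacb over Acaca, the last on a gene with 11 to 153 reads. The groups did not overlap in these 5 ratios, each with an exact permutation p of 0.1. For single genes, the groups did not overlap in 72.4% of all genes tested, and the share for ratios of other gene pairs was not computed. Elovl6 over Elovl5 overlapped (0.83, exact permutation p = 0.3). The Benjamini-Hochberg value over the 8 ratios was 0.114 for each of the 7 ratios at the smallest p, so that none can be called in a design of this size.

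**Figure D4:**
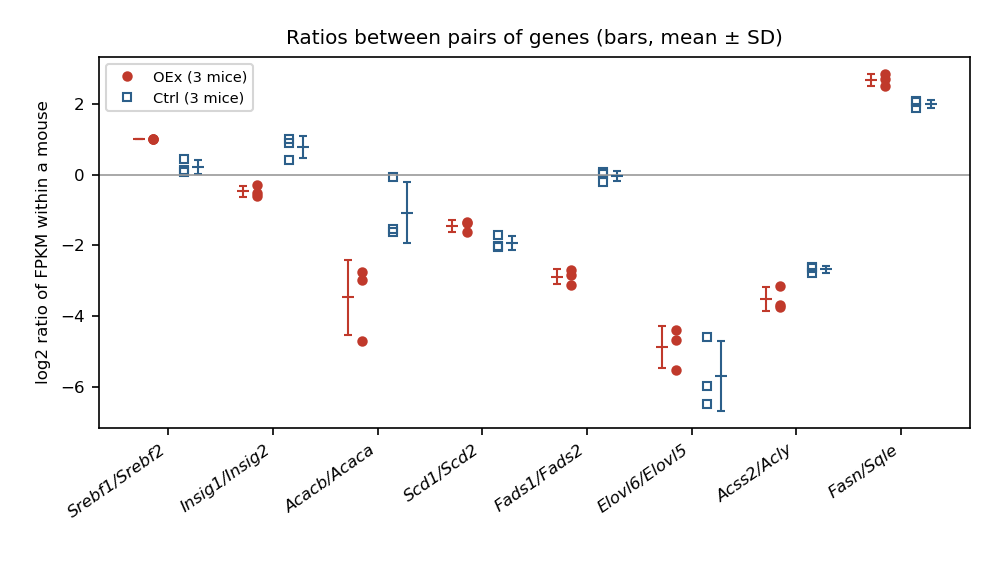
Log2 ratio of FPKM within each mouse for 8 pairs of genes, with filled circles for OEx mice and open squares for Ctrl mice (3 each) and bars for the mean ± SD beside them. Fads1/Fads2 shows the widest gap between groups (-2.84), and Elovl6/Elovl5 is the pair whose groups overlap.

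The genes around the pathway were described from lists of 73 genes, of which 64 were tested, 7 called higher (10.9%) and 10 lower (15.6%), beside the same 12.9% and 15.7% of all genes. In sterol transport and storage, 3 of 11 tested genes were higher and 1 was lower. Abca1, which exports cholesterol from the cell, was at 9.81, 10.1 and 12.5 FPKM in OEx mice and at 1.64, 1.81 and 1.52 FPKM in Ctrl mice, and rose by a log2 fold change of 2.14 (limma FDR = 3.23e-05). Mylip, a ubiquitin ligase that marks lipoprotein receptors for degradation, was at 86.3, 91.5 and 125.1 FPKM in OEx mice and at 18.0, 16.4 and 14.3 FPKM in Ctrl mice, and rose by 2.55 (limma FDR = 4.68e-05). In both genes every OEx mouse was several-fold above every Ctrl mouse. Stard4, a sterol carrier, rose by 1.48, and Nceh1, a cholesteryl ester hydrolase, fell by 1.61 on the log2 scale. Among the nuclear receptors that sense oxysterols, Nr1h2 had a log2 fold change of -0.57 (limma FDR = 0.00114) and Nr1h3 of 0.29 (limma FDR = 0.184), neither of them called.

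Of 19 tested genes that bring citrate, reducing power and electrons to the pathway, 5 were called lower and 1 higher on the deposited scale (15.7% and 12.9% of all genes), but 2 lower and 4 higher under library totals (4.59% and 30.6% of all genes). Slc25a1, the mitochondrial citrate carrier, was at 17.4, 20.3 and 21.1 FPKM in OEx mice and at 73.1, 71.1 and 63.8 FPKM in Ctrl mice, and fell by 1.77 on the log2 scale (limma FDR = 3.88e-05). Mdh1, the cytosolic malate dehydrogenase, fell by 1.33, and these 2 were the calls among 6 tested genes of citrate and NADPH supply. Of the 13 tested electron donors and elongation partners, 3 were lower and 1 was higher. Cyb5a, the cytochrome that passes electrons to the desaturases, was at 27.3, 25.4 and 27.5 FPKM in OEx mice and at 83.9, 84.6 and 89.5 FPKM in Ctrl mice, and fell by 1.65 (limma FDR = 2.64e-05). Its relative Cyb5b fell by 1.82 and the dehydratase Hacd2 by 1.16, whereas the elongase Elovl7 rose by 1.32. The Elovl7 call was lost with the GC trend removed (0.852) and with GC and exon length trends removed (0.853). Under library totals the calls of Mdh1 (-0.55), Cyb5a (-0.88) and Hacd2 (-0.41) were lost. The 17 called genes of these lists kept their sign under the 4 scalings, and 6 of the 10 lower calls were lost under library totals.

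The make-up of the bulk tissue differed between groups along with these genes, and fewer cells of a type cannot be told apart from less RNA per cell. The luminal markers Krt8, Krt18, Epcam and Cdh1 summed to 1004 to 1322 FPKM in OEx mice and 1498 to 1740 FPKM in Ctrl mice, but to 0.2997% to 0.350% and 0.223% to 0.235% of the reads. Within this list the mean FPKM of Krt18 was 311 in OEx and 869 in Ctrl mice and that of Krt8 309 and 416, whereas Epcam was at 371 and 268 and Cdh1 at 128 and 83.5. The basal markers Krt5, Krt14 and Trp63 summed to 3.72 to 5.32 FPKM in OEx mice and 99.4 to 121.8 FPKM in Ctrl mice. The 4 smooth muscle markers summed to 349 to 415 FPKM and 1037 to 2232 FPKM, and the 3 skeletal muscle markers to 24.5 to 31.6 FPKM and 186 to 429 FPKM. Fibroblast markers summed to 199, 204 and 20.7 FPKM in OEx mice and 44.0 to 79.5 FPKM in Ctrl mice, and leukocyte markers to 19.1, 18.3 and 4.36 FPKM in OEx mice and 4.35 to 10.2 FPKM in Ctrl mice, so that OEx replicate 3 stood apart from the other OEx mice in both. The part of these shifts in the lower Mvk, Mvd, Ebp, Tm7sf2, Dhcr7 and Insig1 was not tested.

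Adipocytes, which use the same fatty acid genes, were followed with 8 markers that summed to 3.81 to 4.79 FPKM in OEx mice and 11.7 to 22.8 FPKM in Ctrl mice. Lep was at 0 in the 6 mice, Adipoq, Plin1 and Cidec were at or below 0.334 FPKM, and Retn was at or below 0.375 FPKM. Fabp4 was at or below 0.516 FPKM in OEx mice and at 1.55, 2.17 and 4.47 FPKM in Ctrl mice. Cfd was at 9.28 FPKM in Ctrl replicate 3 and at or below 0.694 FPKM in the other mice. Lipe, which other cells also express, made 3.25 to 4.17 FPKM of the sum in OEx mice and 7.89 to 9.87 FPKM in Ctrl mice. The part of adipocytes in these results was not tested. Without Ctrl replicate 3, which held the seminal vesicle transcripts, 2 genes were called higher and 7 lower, with Acss2 added, beside 1752 and 2000 of all 12831 genes. When replicates 1 and 2 of each group were averaged into a single value, a setting chosen after the data were seen, 2 were called higher and 4 lower, and Insig1 (-0.93) and Dhcr7 (-0.98) lost their calls. Of all 12830 genes, 1617 were called higher and 2000 lower with this averaging.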

How the data were processed

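AP RNA was sequenced on 6 TruSeq libraries, 3 OEx and 3 Ctrl, each called a mouse here. The authors deposited FPKM values per gene symbol from an in-house pipeline. The submitters' processing notes name CASAVA, HISAT2 2.0.5, featureCounts 1.5.0-p3 and StringTie 1.3.3b without roles, and the genome build is not given in the sources used here. Rows were matched by symbol to the GENCODE annotation of GRCm38 (53636 of 55076 rows), which gave coordinates, exon lengths and, from FPKM times length, read counts. Of the values under 1000 reads, 96.9% to 97.5% per mouse came within 0.05 of a whole read. These reads served only for depth and for alternatives, and floors of 3 reads cover counting error only.

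The group difference was fitted in R 4.3.3 by limma 3.58.1 (lmFit, eBayes with trend) on log2(FPKM + 1), a pseudocount of 1. The fit covered 12833 rows, those averaging 1 FPKM or more over the 6 mice, with Benjamini-Hochberg adjustment over all of them. Calls required an FDR under 0.05 and a fold over 2. Log2 fold changes have standard errors and 95% intervals from this fit. Single ratios used the exact two-sided permutation test over 20 assignments (scipy 1.17.1), which cannot go below 0.1. The labels list the libraries as separate samples and do not say that they came from separate mice, so p-values measure only the spread between these samples, which may be technical. The fits were run on simulated independent libraries without rescaling between groups. Those simulations do not cover the likeness of replicates 1 and 2 or the rescaling seen in these data.

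The member genes and all lists were chosen with earlier results of these data known. Values of all 6 mice are given for called members, the 5 SREBP control genes and the highest member of each role, and also for Acat2, Fasn, Fads1 and Idi1, chosen after their values were seen. Of the surrounding lists, called genes are named, at most 4 per list with the largest change, and Nr1h2 and Nr1h3 were named after their values were seen. The replicate numbers run from 1 to 3 in both groups, and nothing in the labels pairs the mice. Alternatives covered pseudocounts, filters, scalings, limma-voom, call rules, each mouse left out, a replicate block, and GC and exon length trends (lowess, span 0.3). A gene of the surrounding lists and a marker list are not reported here.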

Additional observations from a re-analysis of the deposited data

How the results depend on the processing

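Counts of the 29 tested genes called in OEx mice moved by more than 1.5 times from 2 higher and 6 lower under several settings. They were 6 higher and 0 lower under library totals, 4 and 1 under library totals without the 20 most abundant genes, and 4 and 1 under the upper quartile, by limma as in the main test. In the same settings, 30.6% and 4.59%, 19.7% and 9.38%, and 18.2% and 10.3% of all genes were called higher and lower. The counts of the 29 genes were 6 and 14 at an FDR under 0.05 with any fold and 4 and 10 with a fold over 1.5. Of all 12833 genes, 3941 and 4680 passed with any fold and 2987 and 3631 with a fold over 1.5. The count of lower genes was 2 with the GC trend removed and 2 with GC and exon length trends removed, beside 1523 and 1274 of all genes. Leaving out each mouse gave 2 higher and 4 to 7 lower, of 29 or 30 tested genes. All genes then gave 1577 to 1752 higher and 1986 to 2046 lower, of 12685 to 12946 tested. Of the 64 surrounding genes, 7 higher and 10 lower in the main test, 22 and 4 were called under library totals, 13 and 5 without the 20 most abundant genes, 11 higher under the upper quartile, 20 and 23 with any fold, 14 and 19 with a fold over 1.5, and 4 higher with a mean of at least 5 FPKM. With that last filter, 681 of all 7165 genes were called higher. The all-gene counts and shares given above apply to the other settings. The median log2 fold change of the 29 genes was -0.29 in the main test and -0.15 with replicates 1 and 2 averaged. With no filter on low values it was -0.18, over 34 genes. When each mouse was left out, it ran from -0.361 to -0.124, over 29 or 30 genes. The median of the 29 genes was 0.39 under library totals, 0.037 without the 20 most abundant genes and -0.021 under the upper quartile. These scalings moved the median of all genes by 0.636, 0.281 and 0.233.

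Of 602 values of single genes under the alternatives, 505 kept direction and side of the threshold, 42 lost a call, 21 gained one and 34 changed sign, all 34 in genes that were not called. Under library totals the log2 fold change became 0.56 for Srebf2, 0.049 for Scap, 0.26 for Pmvk, 0.15 for Fdft1, 0.48 for Sqle, 0.39 for Lss, 0.30 for Cyp51, 0.35 for Nsdhl and 0.47 for Acly. Without the 20 most abundant genes it became 0.13 for Srebf2, 0.11 for Sqle, 0.073 for Lss and 0.037 for Acly, and under the upper quartile 0.077 for Srebf2, 0.063 for Sqle and 0.032 for Lss. With the GC trend removed it became 0.26 for Srebf2, -0.0473 for Insig2, -0.28 for Hmgcs1, 0.0093 for Acly and -0.21 for Elovl5. With the exon length trend removed it became 0.074 for Pmvk, 0.028 for Nsdhl and -0.33 for Acaca. With both trends removed it became 0.074 for Srebf2, -0.33 for Hmgcs1, 0.32 for Pmvk, -0.0311 for Acaca and -0.15 for Elovl5. The cause was not tested, beyond the rescaling itself.

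A replicate block, from the numbers in the labels, left 2 genes called higher and 6 lower, the same counts as without it, and with both trends removed and the replicate block, 2 and 2, with the same log2 fold changes as without the block (0.074 for Srebf2, -0.33 for Hmgcs1, 0.32 for Pmvk, -0.0311 for Acaca and -0.15 for Elovl5). Of all 12833 genes, 1611 were called higher and 1986 lower with the block, and 1363 and 1253 with both trends removed too. Deviations of same-numbered mice from the group means correlated at -0.194, -0.189 and -0.307. Replicates 1 and 2 lay close together in both groups, so these values are not independent of each other. They cannot show whether the numbers pair the mice. Depth limits Idi1, Fdps, Hsd17b7, Acacb and Elovl6, which had 5 to 153 reads per mouse.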

Other observations

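The synthesized fatty acids are activated to acyl-CoA and stored or released by a set of 16 genes, all tested, of which 1 was called higher (6.25%) and 3 lower (18.8%), beside 12.9% and 15.7% of all genes. Under library totals 7 were called higher and 1 lower, beside 30.6% and 4.59% of all genes. Acsl4, an acyl-CoA synthetase that favours arachidonate, was at 26.7, 25.3 and 22.4 FPKM in OEx mice and at 5.32, 5.86 and 6.83 FPKM in Ctrl mice, and its log2 fold change was 1.88 (limma FDR = 4.17e-05). Its relative Acsl3, a synthetase of lipid droplets, was at 10.8, 10.04 and 11.9 FPKM in OEx mice and at 28.7, 27.0 and 28.0 FPKM in Ctrl mice, and its log2 fold change was -1.28 (limma FDR = 5.81e-05), and -0.54 under library totals, where the call was lost. The order of these synthetases was thus opposite in the groups, with Acsl4 above Acsl3 in every OEx mouse and below it in every Ctrl mouse. Agpat1, an acyltransferase of phosphatidate synthesis, fell by 1.84 on the log2 scale, and Pnpla2, the lipase that opens triglyceride breakdown, fell by 1.06, a call lost under library totals (-0.30).

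Among 7 tested genes of the isoprenoid branches, Pggt1b, a subunit of geranylgeranyl transferase, was the call, at a log2 fold change of 1.08, lost without OEx replicate 3 (0.95) or Ctrl replicate 3 (0.96). With the GC trend removed it was 0.53, and with GC and exon length trends removed it was 0.18 (limma FDR = 0.358). Among 5 tested lipogenic regulators, Prkaa2, a catalytic subunit of the AMP-activated kinase, was at 2.47, 2.78 and 2.67 FPKM in OEx mice and at 0.883, 0.698 and 0.586 FPKM in Ctrl mice. Its log2 fold change was 1.08 (limma FDR = 0.000293), and 0.25 with GC and exon length trends removed.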
